A study of Mus musculus with 19 samples.

Results

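The genes described here encode subunits of the phagocyte NADPH oxidase: Cybb, Cyba, Ncf1 and Ncf4. They were chosen by gene symbol, and 5 of the 25697 probes on the array are annotated to these 4 genes, 2 of them to Ncf1. RNA of mouse neutrophils was measured on 19 single-colour Illumina BeadChips, 1 per sample, in 4 groups. The SM16 group (n = 5) holds tumour-associated neutrophils after treatment with SM16, an inhibitor of Alk5, the kinase of the TGF-beta receptor. The TAN group (n = 3, numbered 1, 2 and 4) holds neutrophils taken from tumours, with no treatment named. The G-MDSC group (n = 4, granulocytic myeloid-derived suppressor cells) holds neutrophils from the spleen of tumour-bearing mice, and the NN group (n = 7) naive neutrophils from bone marrow. All samples are labelled as clonal mouse. Strain, age, tumour line, dose, the way the cells were purified and the number of animals are not given in the sources used here. Nothing in the labels says that replicates are separate animals, so the p-values below measure only the spread between samples, which may be technical.

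The phagocyte oxidase moves electrons from NADPH across a membrane onto oxygen, which makes superoxide, the first product of the respiratory burst. Cybb encodes the electron-carrying subunit gp91phox (NOX2), and Cyba encodes its membrane partner p22phox. In resting cells Ncf1 (p47phox, the organiser that docks on p22phox) and Ncf4 (p40phox, which binds a phosphoinositide of the phagosome membrane) wait in the cytosol. On stimulation kinases phosphorylate p47phox, the cytosolic subunits move to the membrane and a Rac GTPase joins them. In people, loss of any of these subunits leads to chronic granulomatous disease, an immune deficiency, and neutrophils, macrophages and eosinophils all carry the enzyme.

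The start regions of 3 of the genes are shown because these genes were lower together in SM16, TAN and G-MDSC neutrophils than in NN neutrophils. Each run holds 250 bases before and 30 bases after the annotated start, read in the direction of the gene, from RefSeq on GRCm38.p6. Capitals mark exact matches to 3 short motifs searched on both strands: GAGGAA, a core bound by PU.1 and other Ets factors, the CCAAT box, and GGGCGG, the GC box bound by Sp1 family factors. The motifs share no overlapping letters in these runs. For Ncf4 no run is shown.
Cybb, chrX:9469295-9469574, minus strand: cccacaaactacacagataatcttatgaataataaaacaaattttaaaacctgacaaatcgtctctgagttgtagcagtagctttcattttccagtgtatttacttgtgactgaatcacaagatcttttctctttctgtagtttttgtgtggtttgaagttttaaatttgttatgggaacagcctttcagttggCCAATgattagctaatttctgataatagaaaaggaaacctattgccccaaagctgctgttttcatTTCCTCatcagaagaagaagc
Cyba, chr8:122432911-122433190, minus strand: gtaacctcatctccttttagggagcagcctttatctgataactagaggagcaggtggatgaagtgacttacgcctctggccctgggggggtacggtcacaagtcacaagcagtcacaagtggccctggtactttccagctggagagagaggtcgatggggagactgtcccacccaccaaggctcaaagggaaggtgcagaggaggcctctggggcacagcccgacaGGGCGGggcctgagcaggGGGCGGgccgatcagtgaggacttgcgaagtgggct
Ncf1, chr5:134229596-134229875, minus strand: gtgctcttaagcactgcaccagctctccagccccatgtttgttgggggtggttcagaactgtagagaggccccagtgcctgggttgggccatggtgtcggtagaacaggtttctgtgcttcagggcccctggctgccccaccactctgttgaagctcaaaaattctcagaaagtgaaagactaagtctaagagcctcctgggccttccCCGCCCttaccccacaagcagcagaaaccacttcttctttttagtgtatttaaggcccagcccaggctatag
The Cybb run holds CCAAT 56 bases before the start and TTCCTC, which is GAGGAA on the opposite strand, 10 bases after it. The Cyba run holds GGGCGG 24 and 6 bases before the start, and the Ncf1 run has the GC box on the opposite strand, as CCGCCC, 42 bases before the start. In windows of the same length, GAGGAA was present in 26% of 32851 RefSeq promoters, CCAAT in 36.1% and GGGCGG in 34.7%. No motif of the 3 was shared by all 3 runs, and a match is a run of letters, not evidence of binding.

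Levels are log2 intensities after background correction and quantile normalization, given as mean ± SD. A probe was taken as detected on an array at a detection p-value under 0.01. Between 9599 and 12492 probes were detected per array. The fewest were on TAN replicates 2 (9599) and 1 (9697), against 10773 on TAN replicate 4 and at least 10660 on the arrays of the other groups. TAN replicate 4 stood apart from TAN replicates 1 and 2: across genes it correlated with them at 0.881 and 0.891, while those 2 arrays correlated with each other at 0.992 and TAN replicate 4 with the SM16 arrays at 0.964 to 0.976. For this reason the 4 oxidase genes were compared a second time with only replicate 4 as the TAN group. The arrays also fell into 2 ranges by their dimmest signal, 10.3 to 17.7 for all 4 G-MDSC arrays and NN replicates 6 and 7, and 47.5 to 65.5 for the rest, and differences were also computed within these ranges. Of 10 listed neutrophil markers 9 were tested and detected on every array, as were 9 macrophage and monocyte markers, so detection alone does not set the cell types apart. S100a8 averaged 15.77 in SM16, 15.74 in TAN, 15.57 in G-MDSC and 15.81 in NN, while Mmp8, a granule collagenase, averaged 7.01 in SM16, 6.71 in TAN, 9.25 in G-MDSC and 11.60 in NN. Csf3r and Cxcr2 were instead highest in G-MDSC, at 15.34 and 14.74, against 14.50 and 13.92 in NN. The rest of the 9 averaged highest in NN. The summed linear intensity of the 9 neutrophil markers was 198474 to 275609 in SM16, 199290 to 228557 in TAN, 336177 to 356183 in G-MDSC and 364751 to 384371 in NN.

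Cybb, the electron-carrying subunit, was read by probe ILMN_2716935. Its level was 4.81, 4.64, 4.48, 4.52 and 4.56 in SM16 replicates 1 to 5. It was 5.18, 4.66 and 5.00 in TAN replicates 1, 2 and 4. It was 4.91, 4.82, 5.17 and 5.50 in G-MDSC replicates 1 to 4. In NN it ran from 6.21 to 6.82 with a median of 6.72. Every NN array lay above every other array, and the TAN range met those of SM16 and G-MDSC. The SM16 arrays ended at 4.81, just below the lowest G-MDSC array at 4.82. The probe was detected on none of 5 SM16 arrays, none of 3 TAN arrays, 1 of 4 G-MDSC arrays (replicate 4) and all 7 NN arrays. Outside NN the values are therefore mostly upper limits, and Cybb passed the filter on dim probes through the NN arrays, so its selection for testing already favoured a lower level elsewhere.

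Cyba, the membrane partner, was read by probe ILMN_2806700 and detected on all 19 arrays. Its level was 14.72, 14.91, 14.64, 14.80 and 14.80 in SM16 replicates 1 to 5. It was 13.73, 14.17 and 14.72 in TAN replicates 1, 2 and 4. It was 14.54, 14.91, 14.83 and 14.85 in G-MDSC replicates 1 to 4. In NN it ran from 15.33 to 15.52 with a median of 15.38. NN lay above all other arrays, TAN replicates 1 and 2 lay below all others, and TAN replicate 4 lay inside the SM16 range. The raw signal of this probe reached 24.5% to 67.8% of the brightest probe on its array.

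Ncf1, the organiser, had a brighter probe (ILMN_2829457), which stands for the gene below, and a dimmer one (ILMN_1228585). On the brighter probe the level was 9.17, 9.0, 9.39, 9.15 and 8.93 in SM16 replicates 1 to 5. It was 8.11, 8.21 and 9.93 in TAN replicates 1, 2 and 4. It was 10.15, 10.33, 10.46 and 10.24 in G-MDSC replicates 1 to 4. In NN it ran from 11.99 to 12.40 with a median of 12.18. The levels were separate, with NN highest, G-MDSC next and the tumour arrays lowest, and the SM16 arrays lay between TAN replicates 1 and 2 below and TAN replicate 4 above. The dimmer probe kept this order, at 4.72 ± 0.17 in SM16, 4.68 ± 0.26 in TAN, 6.25 ± 0.14 in G-MDSC and 7.50 ± 0.21 in NN. It was detected on none of the 5 SM16 and 3 TAN arrays, and on all 4 G-MDSC and 7 NN arrays. The dimmer probe thus passed the filter on dim probes through G-MDSC and NN. Its selection for testing already favoured a lower level in SM16 and TAN.

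Ncf4, the phosphoinositide-binding subunit, was read by probe ILMN_2743013 and detected on all 19 arrays. Its level was 13.86, 13.71, 14.04, 13.90 and 13.57 in SM16 replicates 1 to 5. It was 14.59, 14.60 and 14.11 in TAN replicates 1, 2 and 4. It was 14.57, 14.78, 14.47 and 14.54 in G-MDSC replicates 1 to 4. In NN it ran from 14.78 to 14.92 with a median of 14.86. SM16 held the 5 lowest values, TAN replicate 4 came next, and the G-MDSC range met that of NN at its highest array. Of the 4 genes only Ncf4 was lower on TAN replicate 4 than on both TAN replicates 1 and 2.

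**Figure D1:**
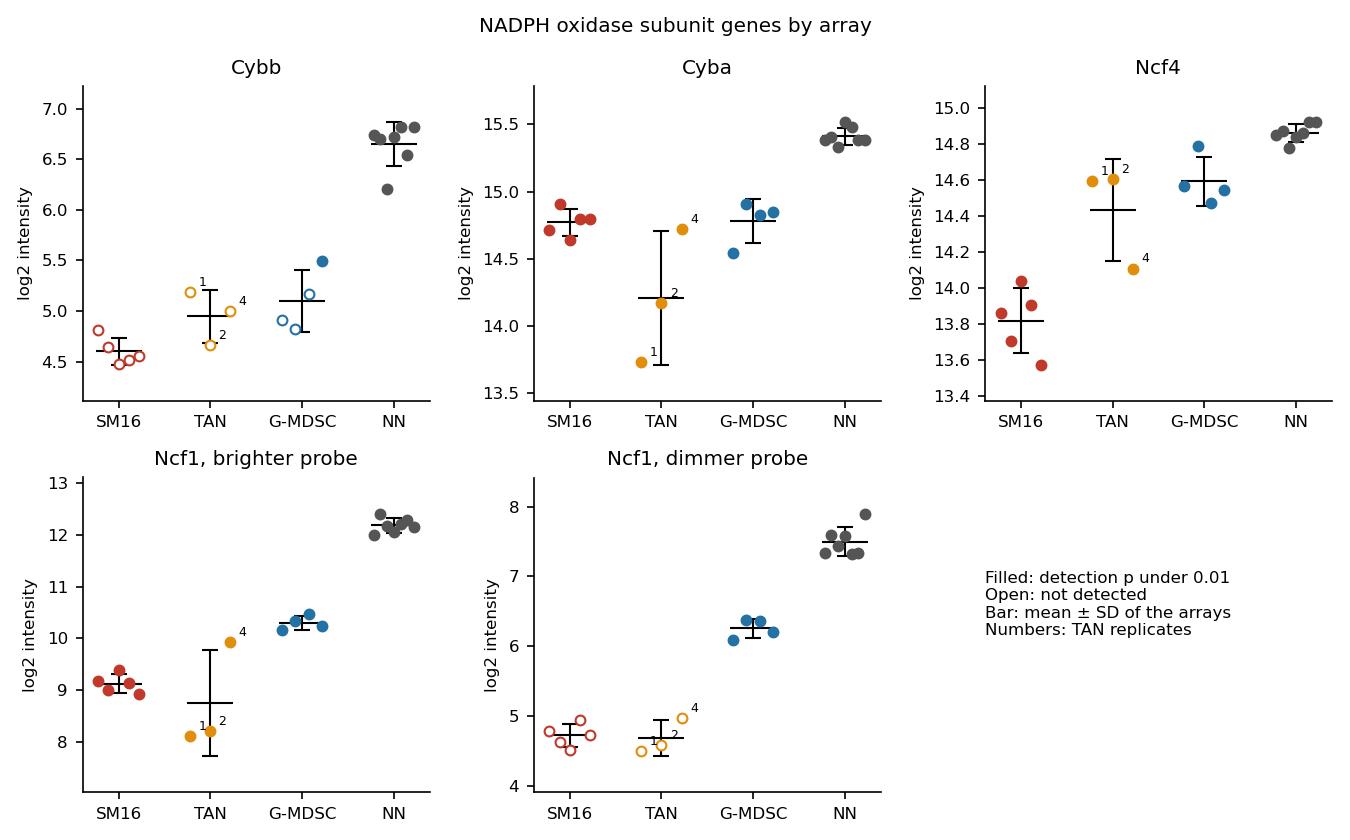
Log2 intensity of the 4 oxidase genes, with both Ncf1 probes, by array in the SM16, TAN, G-MDSC and NN groups. Each point is 1 array, filled where the probe was detected, and bars are the mean ± SD. NN is highest in every panel, and Cybb is open on all but 1 array outside NN. TAN replicates 1 and 2 part from TAN replicate 4 for Ncf4 and for Ncf1 on its brighter probe, while Cyba rises evenly over TAN replicates 1, 2 and 4.

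The first question was how the oxidase genes of tumour and spleen neutrophils stand against those of naive bone marrow neutrophils. Cybb, Cyba, Ncf1 and Ncf4 were each lower than in NN in SM16, in TAN and in G-MDSC, and the G-MDSC call of Ncf4 was near the threshold and turned to higher under median scaling. Ncf1 had the largest log2 difference of the 4 in each of these comparisons, where the fitted values of Cybb are limits. Less RNA of a gene per cell and fewer cells that carry it cannot be told apart in such bulk samples. The calls come from limma, with p-values adjusted by Benjamini-Hochberg over 9523 genes and a threshold of 0.05.

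In SM16 against NN, 4 of 4 genes fell, where 31.7% of all genes tested were called lower and 64.5% were called in either direction. Cybb is counted here although it passed the filter on dim probes through the NN arrays. Cyba, Ncf1 and Ncf4, detected on all 19 arrays, were each called lower. Ncf1 averaged 9.13 ± 0.18 in SM16 and 12.18 ± 0.14 in NN, a difference of -3.06 or 8.32-fold lower (SE 0.22, limma adjusted p = 1.31e-10). Its dimmer probe, which passed the filter on dim probes through the G-MDSC and NN arrays, was at least 4.40-fold lower. Cybb averaged 4.60 ± 0.13 in SM16 and 6.65 ± 0.21 in NN and was at least 2.44-fold lower (limma adjusted p = 2.17e-10). A fold given as "at least" sets the bright group against the lowest detected signal of each dim array, on the background-corrected scale. Ncf4 averaged 13.82 ± 0.18 in SM16 and 14.86 ± 0.05 in NN, a difference of -1.04 or 2.06-fold lower (limma adjusted p = 8.64e-09). Cyba averaged 14.77 ± 0.10 in SM16 and 15.41 ± 0.06 in NN, a difference of -0.64 or 1.56-fold lower (limma adjusted p = 8.16e-05). The SM16 and NN arrays did not overlap for any of the 4 genes, as for 26.7% of all genes in that direction. The median difference of the 4 genes, which takes in the Cybb limit, was -1.55, against 0.02 for all genes.

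In TAN against NN, 4 of 4 genes again fell, where 30% of all genes were called lower and 69.3% in either direction. The count again takes in Cybb, which passed the filter on dim probes through the NN arrays. Ncf1 averaged 8.75 ± 1.02 in TAN and 12.18 ± 0.14 in NN, a difference of -3.43 or 10.8-fold lower (SE 0.26, limma adjusted p = 4.26e-10). Its dimmer probe, which passed that filter through the G-MDSC and NN arrays, was at least 3.11-fold lower. With TAN replicate 4 alone the Ncf1 difference was -2.25 (limma adjusted p = 6.36e-09), the lone array being assumed to vary like the other groups. Cybb averaged 4.95 ± 0.26 in TAN and 6.65 ± 0.21 in NN and was at least 1.73-fold lower (limma adjusted p = 5.62e-08), with a difference of -1.65 with TAN replicate 4 alone (adjusted p = 4.15e-05). Cyba averaged 14.21 ± 0.50 in TAN and 15.41 ± 0.06 in NN, a difference of -1.20 or 2.30-fold lower (limma adjusted p = 2.79e-07), and -0.69 with TAN replicate 4 alone (adjusted p = 0.000356). Ncf4 averaged 14.43 ± 0.28 in TAN and 14.86 ± 0.05 in NN, a difference of -0.43 or 1.35-fold lower (limma adjusted p = 0.00264). For Ncf4 the difference was -0.75 with TAN replicate 4 alone (adjusted p = 0.000349) and -0.07 under median scaling (adjusted p = 0.750), where the call was lost. TAN replicate 4 alone left 4 of 4 genes lower, with 49.7% of all genes called. The TAN and NN arrays did not overlap for any of the 4 genes, as for 22.9% of all genes in that direction.

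In G-MDSC against NN, 4 of 4 genes were called lower, where 23.5% of all genes were called lower and 45.9% in either direction, and Ncf4 turned to 0.30 (adjusted p = 0.144) under median scaling. Here too the count takes in Cybb, which passed the filter on dim probes through the NN arrays. Ncf1 averaged 10.30 ± 0.13 in G-MDSC and 12.18 ± 0.14 in NN, a difference of -1.88 or 3.69-fold lower (SE 0.23, limma adjusted p = 1.08e-06). On its dimmer probe, detected on every array of both groups, the difference was -1.24 or 2.37-fold lower (limma adjusted p = 1.36e-06). Cybb averaged 5.10 ± 0.30 in G-MDSC and 6.65 ± 0.21 in NN and was at least 2.34-fold lower (limma adjusted p = 1.03e-07). Cyba averaged 14.78 ± 0.16 in G-MDSC and 15.41 ± 0.06 in NN, a difference of -0.63 or 1.55-fold lower (limma adjusted p = 0.000371), and -0.15 under median scaling (adjusted p = 0.336). Ncf4 averaged 14.59 ± 0.13 in G-MDSC and 14.86 ± 0.05 in NN, a difference of -0.27 or 1.21-fold lower (limma adjusted p = 0.0401). The ranges did not overlap for Cybb, Cyba and Ncf1, as for 19.3% of all genes in that direction. The Ncf4 ranges overlapped, and its call held in 10 of 23 alternative settings. Median scaling, which matches only the medians of the arrays, moved the median difference of all genes to 0.21, against -0.03. Relative to these medians the Ncf4 difference was 0.10 under median scaling, against -0.24, and the Cyba difference -0.36, against -0.61.

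Within the arrays of 1 range of lowest signal these differences were close to those over all arrays. For SM16 against NN replicates 1 to 5 they were -2.04 for Cybb, -0.65 for Cyba, -3.04 for Ncf1 and -1.02 for Ncf4. For TAN against the same NN arrays they were -1.69, -1.22, -3.42 and -0.40 in the same order of genes. For G-MDSC against NN replicates 6 and 7 they were -1.58, -0.60, -1.92 and -0.33. The Ncf4 difference of G-MDSC was the only one of these 12 that missed the threshold (limma adjusted p = 0.0584). Without background correction the Cybb difference was -0.93 in SM16, -0.75 in TAN and -0.69 in G-MDSC against NN, and all 3 calls held. The 3 comparisons share the 7 NN arrays and are not independent of one another.

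**Figure D2:**
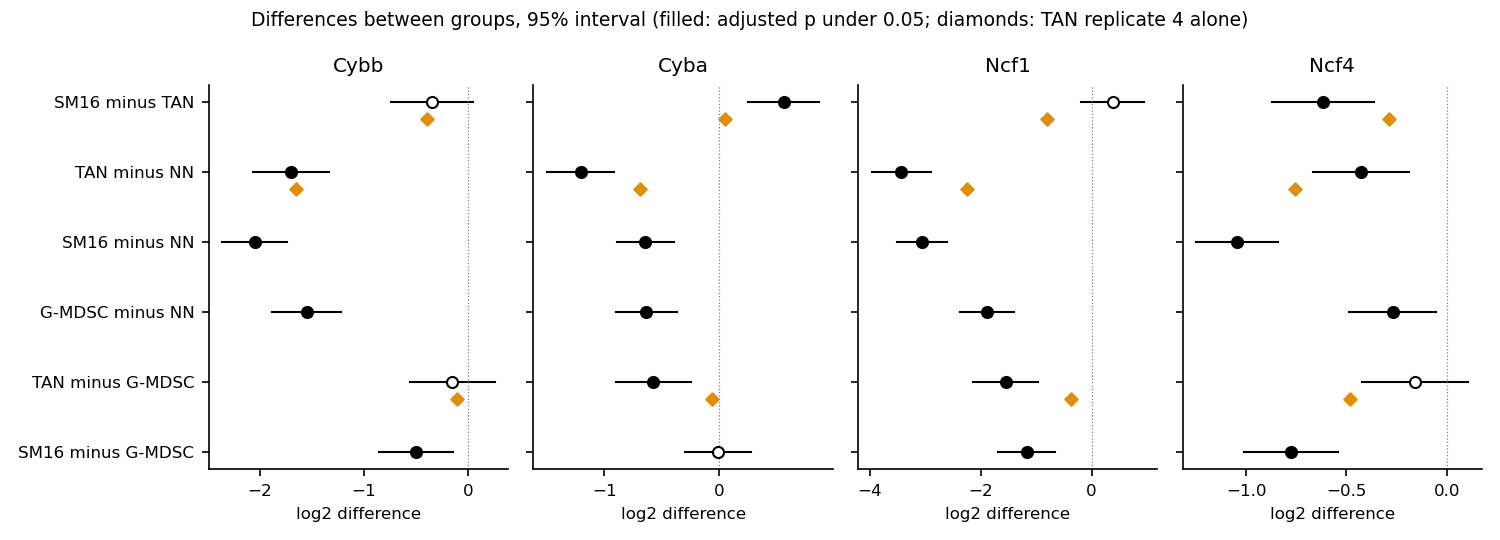
Log2 difference of Cybb, Cyba, Ncf1 and Ncf4 in 6 comparisons, first group minus second, with 95% intervals from limma. Filled circles passed an adjusted p of 0.05, and diamonds give TAN replicate 4 alone. All 12 differences from NN lie below 0 (Ncf4 in G-MDSC turns to 0.30 under median scaling), and SM16 minus TAN has both signs, with Ncf1 at 0.38 over 3 TAN arrays and -0.80 with TAN replicate 4 alone.

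The central comparison of the study is SM16 against TAN, neutrophils of treated against untreated tumours. Cyba was higher in SM16 and Ncf4 lower, while Cybb and Ncf1 did not pass the test, and the calls of Cyba and Ncf4 were lost against TAN replicate 4 alone. Thus 1 of 4 genes was called higher and 1 of 4 lower, where 17.8% of all genes were called higher, 28.2% lower and 46% in either direction. The median difference was 0.02 for the 4 genes and -0.21 for all genes.

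Ncf4 averaged 13.82 ± 0.18 in SM16 and 14.43 ± 0.28 in TAN, a difference of -0.62 or 1.53-fold lower (SE 0.12, limma adjusted p = 0.000699). The 5 SM16 arrays lay below the 3 TAN arrays, as for 16.2% of all genes, and the call held under median scaling at -0.97. Against TAN replicate 4 alone the Ncf4 difference was -0.29 (limma adjusted p = 0.329). Cyba averaged 14.77 ± 0.10 in SM16 and 14.21 ± 0.50 in TAN, a difference of 0.56 or 1.48-fold higher (SE 0.15, limma adjusted p = 0.00528), with overlapping arrays. The Cyba call was lost against TAN replicate 4 alone at 0.05 (adjusted p = 0.915), under median scaling at 0.22 (adjusted p = 0.254) and in a fit of only these 2 groups (adjusted p = 0.0625). Without TAN replicate 1 the Cyba difference was 0.32 (limma adjusted p = 0.0835).

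Ncf1 averaged 9.13 ± 0.18 in SM16 and 8.75 ± 1.02 in TAN, a difference of 0.38 with a 95% interval of -0.19 to 0.94 (limma adjusted p = 0.262). It was 0.97 higher in SM16 without TAN replicate 4 (adjusted p = 5.58e-06) and -0.80 against TAN replicate 4 alone (adjusted p = 0.0172), so both directions were called from different TAN arrays. With array weights, which count arrays far from their group mean less, it was 0.90 (adjusted p = 1.20e-08). The dimmer Ncf1 probe was detected on no array of either group. Cybb averaged 4.60 ± 0.13 in SM16 and 4.95 ± 0.26 in TAN, a difference of -0.35 (limma adjusted p = 0.135), with no array of either group detected and therefore no fold. Against TAN replicate 4 alone, 1 of the 4 genes (Ncf1, lower) was called, where 4.74% of all genes were. The TAN group has 3 arrays of which 1 departs. The spread used for its tests is pooled over all 4 groups, and most arrays behind it are from other groups. TAN itself had the largest SD for Ncf1 (1.02, against 0.13 to 0.18 in the other groups). The same held for Cyba (0.50, against 0.06 to 0.16) and Ncf4 (0.28, against 0.05 to 0.18). For Cybb the TAN SD of 0.26 was below the 0.30 of G-MDSC. The same pooled spread served the comparisons without TAN.

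Spleen neutrophils of tumour-bearing mice were used as the third point of comparison. In TAN against G-MDSC, 2 of 4 genes fell (Cyba and Ncf1), where 25.6% of all genes were called lower and 63.2% in either direction. Ncf1 averaged 8.75 ± 1.02 in TAN and 10.30 ± 0.13 in G-MDSC, a difference of -1.55 or 2.93-fold lower (limma adjusted p = 0.000105). Its dimmer probe was at least 1.31-fold lower (limma adjusted p = 1.05e-06 in a fit of all probes). That probe passed the filter on dim probes through the G-MDSC and NN arrays, which favoured a lower level in TAN. The Ncf1 arrays of TAN lay below those of G-MDSC, as for 19.6% of all genes. Cyba averaged 14.21 ± 0.50 in TAN and 14.78 ± 0.16 in G-MDSC, a difference of -0.57 (limma adjusted p = 0.00344). With TAN replicate 4 alone Ncf1 was at -0.37 (adjusted p = 0.116) and Cyba at -0.06 (adjusted p = 0.763) and neither was called, while Ncf4 was called lower at -0.48 (adjusted p = 0.0184). Ncf4 over all 3 TAN arrays differed by -0.16 (limma adjusted p = 0.287) and Cybb by -0.15 (adjusted p = 0.514).

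In SM16 against G-MDSC, 3 of 4 genes were called lower (Cybb, Ncf1 and Ncf4), where 29.8% of all genes were called lower and 62.4% in either direction. Ncf1 averaged 9.13 ± 0.18 in SM16 and 10.30 ± 0.13 in G-MDSC, a difference of -1.17 or 2.25-fold lower (limma adjusted p = 0.000418). Its dimmer probe was at least 1.86-fold lower (limma adjusted p = 1.88e-07 in a fit of all probes). That probe passed the filter on dim probes through the G-MDSC and NN arrays, which favoured a lower level in SM16. Ncf4 averaged 13.82 ± 0.18 in SM16 and 14.59 ± 0.13 in G-MDSC, a difference of -0.78 or 1.71-fold lower (limma adjusted p = 6.47e-06). The arrays did not overlap for Ncf1, Ncf4 or Cybb, as for 26.2% of all genes in that direction. For Cybb the gap was only that between 4.81 and 4.82, on arrays where the probe was not detected. Cyba averaged 14.77 ± 0.10 in SM16 and 14.78 ± 0.16 in G-MDSC, a difference of -0.01 with a 95% interval of -0.30 to 0.28 (limma adjusted p = 0.955), and of -0.50 under median scaling (adjusted p = 0.00303). The Cybb difference of -0.50 (limma adjusted p = 0.0168) lies between 2 groups with 0 of 5 and 1 of 4 arrays detected, so no fold is given. With the range of lowest signal as a term it was -0.45 (adjusted p = 0.206). No such range holds both tumour and spleen arrays, so within-range values do not exist for these comparisons.

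By level, Ncf1 ran from NN through G-MDSC to the tumour groups, and its tumour neighbours SM16 and TAN did not differ beyond their spread over 3 TAN arrays. With TAN replicate 4 alone SM16 was called below TAN, and TAN and G-MDSC were not told apart. For Cyba the order was NN, G-MDSC, SM16 and TAN. Of these, G-MDSC and SM16 could not be told apart, and the step between SM16 and TAN was lost in 4 of 20 alternative settings. For Ncf4 the order was NN, G-MDSC, TAN and SM16, and TAN and G-MDSC could not be told apart, while the step between SM16 and TAN was lost with TAN replicate 4 alone. For Cybb NN stood alone, and TAN could be told neither from G-MDSC nor from SM16. Over the 19 arrays the correlation of log2 levels between pairs of the 4 genes ran from 0.41 (Cyba and Ncf4) to 0.91 (Cybb and Ncf1), and over the 17 arrays without TAN replicates 1 and 2 from 0.72 to 0.96. These arrays share their groups, so the correlations describe the group differences above.

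Of the genes listed as partners of the oxidase, 4 were analysed here. Rac2, the main Rac GTPase of the neutrophil oxidase, averaged 12.89 ± 0.36 in SM16, 9.81 ± 2.84 in TAN, 13.89 ± 0.19 in G-MDSC and 14.83 ± 0.18 in NN. The TAN mean joins 8.16 and 8.19 on TAN replicates 1 and 2 with 13.10 on TAN replicate 4. Rac1 parted in the same way, with 4.78 and 4.70, not detected, on TAN replicates 1 and 2 and 9.29 on TAN replicate 4, against 9.02 ± 0.23 in SM16, 9.48 ± 0.34 in G-MDSC and 9.67 ± 0.20 in NN. Cybc1, a chaperone that cells need to hold gp91phox and p22phox, averaged 10.25 ± 0.13 in SM16, 9.86 ± 0.94 in TAN, 11.86 ± 0.10 in G-MDSC and 11.42 ± 0.20 in NN. Hvcn1, the proton channel that balances the charge the oxidase moves, averaged 9.62 ± 0.27 in SM16, 9.66 ± 0.11 in TAN, 9.74 ± 1.36 in G-MDSC and 12.03 ± 0.12 in NN.

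Against NN, 3 of the 4 partners fell in SM16, 4 in TAN and 1 in G-MDSC. Of all genes, 31.7% were called lower in SM16, 30% in TAN and 23.5% in G-MDSC. The median difference of the 4 partners in TAN was -2.89, and -1.11 with TAN replicate 4 alone, where the Rac1 difference shrank to -0.38. In SM16 against NN, Hvcn1 was 5.32-fold, Rac2 3.83-fold and Cybc1 2.25-fold lower (limma adjusted p = 0.00406 for Rac2). Rac1 differed by -0.65 in SM16 (limma adjusted p = 0.278) and was called lower in a fit of SM16 and NN only (adjusted p = 0.000182), with array weights and without TAN replicates 1 and 2 in the fit. In TAN against NN, Hvcn1 was 5.16-fold lower, with a difference of -2.28 with TAN replicate 4 alone, and Rac2 differed by -5.01, or by -1.73 with TAN replicate 4 alone (adjusted p = 1.02e-05). Hvcn1 was 4.90-fold lower in G-MDSC than in NN, with G-MDSC replicate 1 at 11.77 and the other 3 arrays at 8.92 to 9.30, and missed the threshold within 1 range of lowest signal (-2.33, limma adjusted p = 0.0515). Rac2 in G-MDSC against NN differed by -0.94 (limma adjusted p = 0.202), and was called lower in a fit of these 2 groups (adjusted p = 4.63e-06) and within 1 range of lowest signal at -0.70 (adjusted p = 0.00663). Cybc1 in G-MDSC against NN differed by 0.44 (limma adjusted p = 0.104), and was called higher in a fit of these 2 groups (adjusted p = 0.00324), with array weights, under median scaling and without TAN replicates 1 and 2 in the fit. The summed linear intensity of 3 B cell markers, a cell type that carries Hvcn1, was 9589 on G-MDSC replicate 1 and 380 to 546 on the other G-MDSC arrays, and its part in the Hvcn1 level was not tested. In SM16 against TAN, Rac1 and Rac2 were called higher. With TAN replicate 4 alone neither was called, and Cybc1 was called lower at -0.69 (limma adjusted p = 0.0421).

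**Figure D3:**
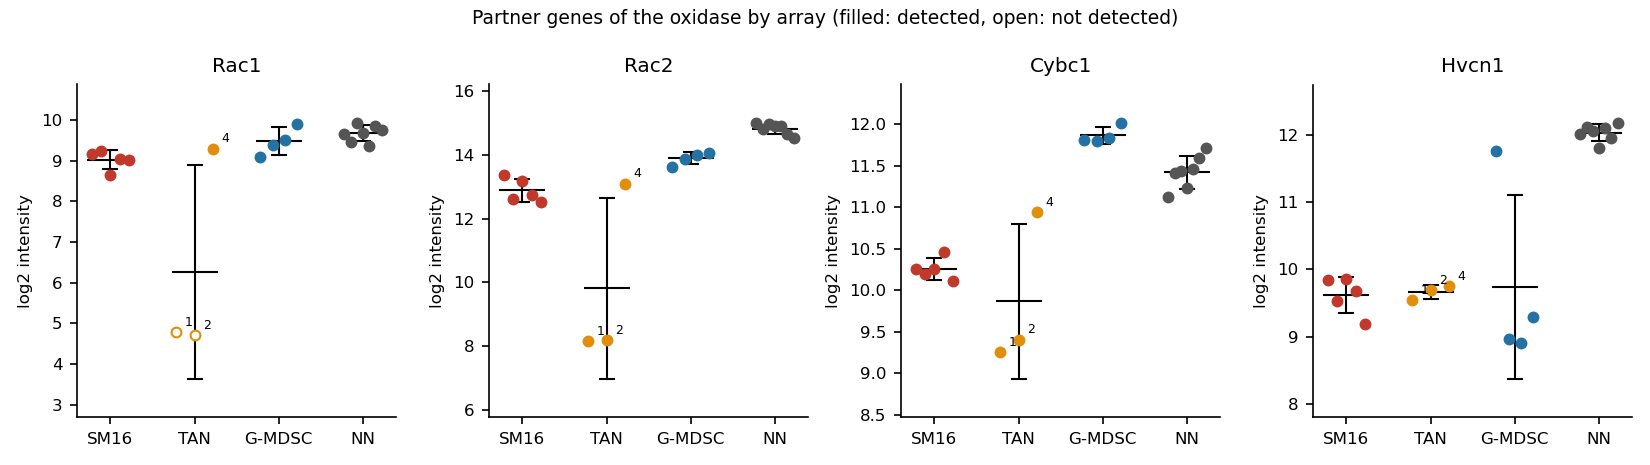
Log2 intensity of the oxidase partners Rac1, Rac2, Cybc1 and Hvcn1 by array in the SM16, TAN, G-MDSC and NN groups, filled where detected, with bars for the mean ± SD. TAN replicates 1 and 2 lie far below TAN replicate 4 for Rac1 and Rac2, and G-MDSC replicate 1 stands near the NN level for Hvcn1.

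The lists of pathway genes are summarised by counts over the members tested. Each count stands against all genes, of which 64.5% were called in SM16 against NN (31.7% lower), 69.3% in TAN (30% lower) and 45.9% in G-MDSC (23.5% lower), with medians of 0.02, 0.19 and -0.03. Of 14 kinases and exchange factors that activate the oxidase (22 listed), 10 were lower and 0 higher than NN in SM16, 12 lower and 1 higher in TAN, and 7 lower and 4 higher in G-MDSC. Their median difference from NN was -1.07 in SM16, -0.98 in TAN and -0.44 in G-MDSC. With TAN replicate 4 alone it was -0.87, against 0.03 for all genes. Prkcb, a protein kinase C that phosphorylates p47phox, averaged 10.35 in SM16, 10.69 in TAN, 11.97 in G-MDSC and 12.60 in NN, and was 3.76-fold lower in TAN than in NN (limma adjusted p = 7.13e-10), with a difference of -2.06 with TAN replicate 4 alone. Mapk14, the p38 kinase that primes p47phox, was 4.77-fold lower than NN in SM16, and its SM16 minus TAN difference of 2.44 shrank to 0.13 with TAN replicate 4 alone. Vav1, a Rac exchange factor, was 1.71-fold higher in G-MDSC than in NN, as was Pik3cd at 1.86-fold. A list for NADPH supply holds 8 genes, of which 6 were tested, while G6pdx and Pgd were not. Of these 6, 5 were lower and 1 higher than NN in SM16, 4 and 1 in TAN, and 3 and 1 in G-MDSC. Their medians were -1.33 in SM16, -0.96 in TAN (-1.18 with TAN replicate 4 alone) and -0.89 in G-MDSC. Me1 went the other way in the tumour groups, at 5.94 in SM16 and 5.97 in TAN, against 5.11 in NN and 4.71 in G-MDSC. It was detected on no NN or G-MDSC array. Tkt, the transketolase of the pentose phosphate path, was 3.86-fold lower in SM16, 3.0-fold in TAN and 1.92-fold in G-MDSC than in NN, with a difference of -2.08 with TAN replicate 4 alone.

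Of 6 genes tested that handle superoxide and peroxide (8 listed), 2 were higher and 2 lower than NN in SM16, 2 and 3 in TAN, and 1 and 2 in G-MDSC. Their median difference from NN in TAN was -1.74, and -0.15 with TAN replicate 4 alone. The 4 of 6 called in SM16 and the 3 of 6 in G-MDSC are near the 64.5% and 45.9% of all genes. Sod2, the mitochondrial superoxide dismutase, went against the oxidase genes, at 12.78 ± 0.27 in SM16, 13.26 ± 0.14 in TAN and 11.05 ± 0.27 in G-MDSC, against 10.29 ± 0.28 in NN. It was 5.62-fold higher than NN in SM16, 7.84-fold in TAN and 1.70-fold in G-MDSC, where it missed the threshold within 1 range of lowest signal (0.41, limma adjusted p = 0.126). Mpo, the azurophil granule enzyme that turns peroxide into hypochlorous acid and is made in granulocyte precursors, averaged 6.53 in TAN, 7.52 in G-MDSC and 12.51 in NN and was not detected in SM16.

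Of 6 transcription factors tested that are known to act on oxidase genes (8 listed), 2 were higher and 2 lower than NN in SM16, 2 and 4 in TAN, and 3 and 1 in G-MDSC. Their median difference from NN in TAN was -1.16, and -0.05 with TAN replicate 4 alone. The 4 of 6 called in SM16 are near the 64.5% of all genes, of which 69.3% were called in TAN and 45.9% in G-MDSC. Spi1, which encodes PU.1, averaged 11.56 ± 0.24 in SM16, 10.08 ± 1.49 in TAN, 12.36 ± 0.17 in G-MDSC and 11.85 ± 0.24 in NN. It was not called in SM16 or G-MDSC against NN, and in SM16 against TAN it differed by 1.48 (limma adjusted p = 0.00437) but by -0.24 with TAN replicate 4 alone. Irf1 and Irf8, interferon regulatory factors that act on human CYBB, were higher than NN while Cybb was lower. Irf8 was 6.91-fold higher in SM16, 6.02-fold in TAN and 2.26-fold in G-MDSC, and Irf1 5.08-fold, 4.72-fold and 3.27-fold in the same order. With TAN replicate 4 alone the Irf8 difference from NN was 2.57. The Irf8 difference of G-MDSC missed the threshold within 1 range of lowest signal (1.14, limma adjusted p = 0.0977). Cebpe, a factor of late granulocyte maturation, was 70.4-fold lower in SM16, 40.4-fold in TAN and 8.30-fold in G-MDSC than in NN, and its difference was -5.22 with TAN replicate 4 alone. Of the other NADPH oxidases only Noxo1, the organiser of NOX1, was tested, at 5.80 ± 0.26 in SM16, 6.48 ± 0.37 in TAN, 5.56 ± 0.31 in G-MDSC and 5.54 ± 0.35 in NN. It was called higher in TAN than in NN (0.94, limma adjusted p = 0.00117), a call lost with TAN replicate 4 alone (adjusted p = 0.222).

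**Figure D4:**
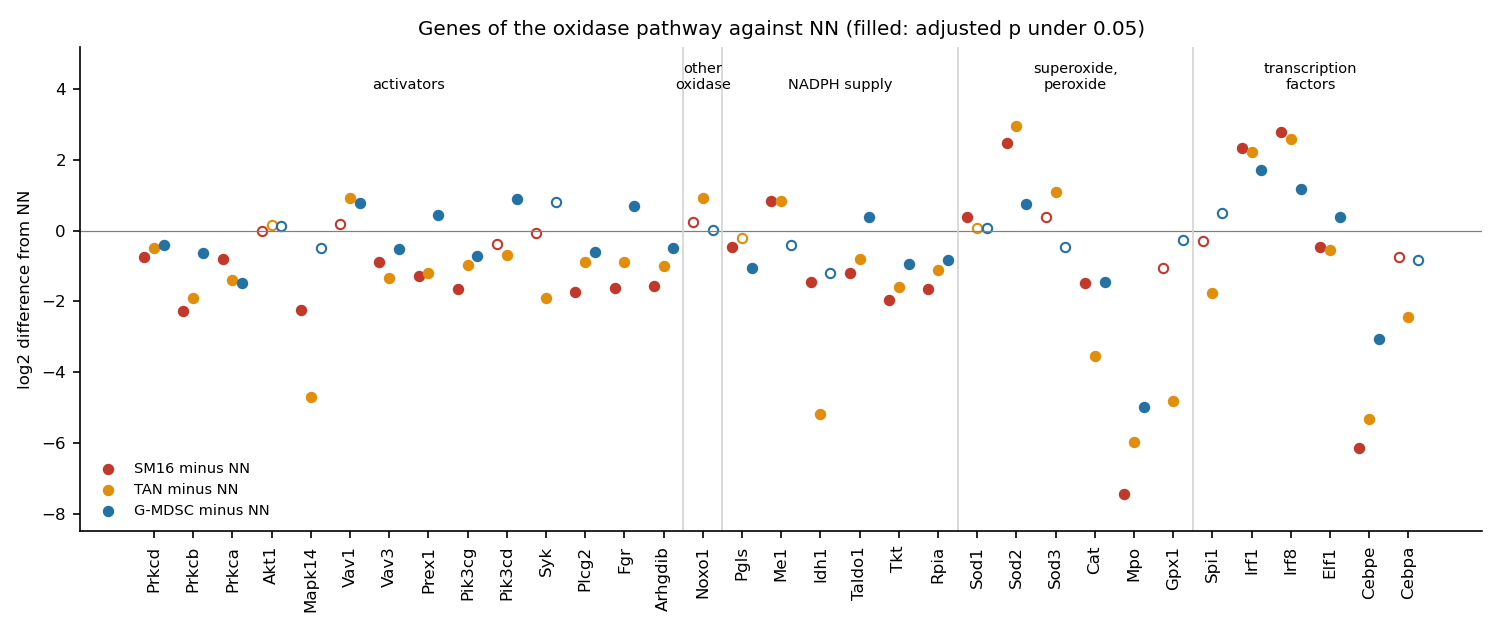
Log2 difference from NN in SM16, TAN and G-MDSC for the tested genes of the oxidase pathway lists, filled where adjusted p was under 0.05. Most activators and genes of the NADPH supply list lie below 0, while Sod2, Irf1 and Irf8 lie above 0 in all 3 groups. Differences of probes not detected in 1 group are limits only.

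Other cell types moved with the same groups. The summed intensity of 7 granulocyte precursor markers was 2473 to 10248 in SM16, 927 to 4073 in TAN, 41739 to 54477 in G-MDSC and 110873 to 128392 in NN. Between the tumour groups the markers were split. Camp averaged 10.65 in SM16 and 9.66 in TAN, and Ngp 11.38 and 7.15. Mpo (5.05 and 6.53), Prtn3 (6.18 and 7.75), Elane, Ctsg and Ms4a3 averaged lower in SM16 than in TAN. Of the markers lower in SM16, only Prtn3 was detected there. The summed intensity of 4 of 6 eosinophil markers tested was 53 to 316 in SM16, 75.5 to 219 in TAN, 159 to 752 in G-MDSC and 17321 to 31456 in NN. Of these 4, Epx was detected on no array outside NN. Prg2 averaged 14.40 in NN, against 5.69 in SM16, 6.21 in TAN and 7.32 in G-MDSC. Il5ra went the other way, at 5.59 in SM16 and 6.29 in TAN against 5.25 in NN, with 4.78 in G-MDSC. Ccr3 was alike in G-MDSC (6.88) and NN (6.87) and was not detected in SM16 or TAN. The summed intensity of 3 of 5 erythroid markers tested was 317 to 747 in SM16, 956 to 1371 in TAN, 2129 to 14423 in G-MDSC and 78335 to 90420 in NN. That of 9 of 13 macrophage and monocyte markers tested was 94789 to 161050 in SM16, 27043 to 84830 in TAN, 6544 to 8820 in G-MDSC and 6011 to 12687 in NN, with all 9 detected on every array. Not all 9 were highest in SM16. Cx3cr1 averaged 10.46 in TAN and 8.18 in SM16, Fcgr1 10.59 and 10.23, and Trem2 12.22 and 12.02. The rest of the 9 averaged higher in SM16 than in TAN. Markers of hair follicle, 4 of 6 tested, summed to 1422 to 17291 in SM16, 159 to 192 in TAN, 50.6 to 100.2 in G-MDSC and 83.6 to 142 in NN. Within TAN the macrophage sum was 27043 and 34271 on replicates 1 and 2 and 84830 on replicate 4. Eosinophils and macrophages carry the oxidase, and the part of these cells in the levels of Cybb, Cyba, Ncf1 and Ncf4 was not tested.

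**Figure D5:**
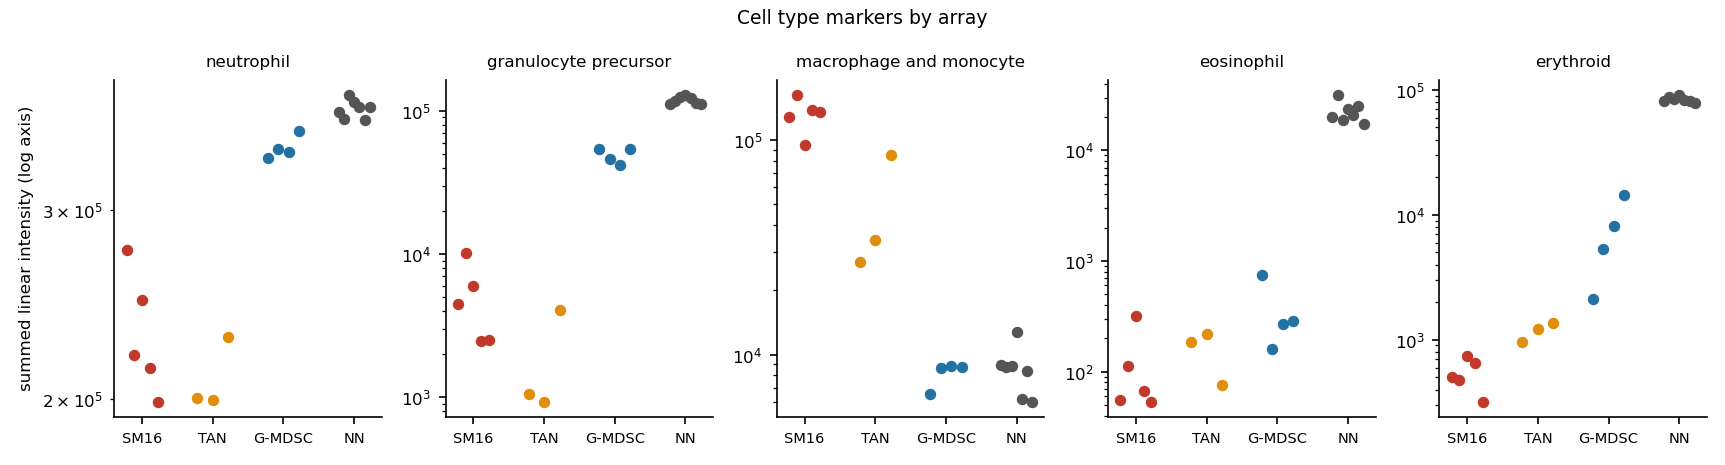
Summed linear intensity of 5 marker lists by array in the SM16, TAN, G-MDSC and NN groups, on log axes. Precursor, eosinophil and erythroid sums are highest in NN, where the oxidase genes are highest, and the macrophage sum is highest in SM16.

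The genes most like each oxidase gene were taken as the 3 highest Pearson correlations of log2 level over the 19 arrays. For Cybb they were Hbb-bt at 0.977, Crtac1 at 0.974 and Fam71b at 0.973. For Cyba they were Ube2l6 at 0.964, Mlec at 0.962 and Cat at 0.960. For Ncf1 they were Ankrd22 and Cd177, both at 0.982, and Prkab1 at 0.980. For Ncf4 they were Dab2ip at 0.993, Gmip at 0.979 and Synrg at 0.978. Without TAN replicates 1 and 2 the same 12 correlations ran from 0.936 to 0.993 over 17 arrays. Hbb-bt is a beta globin gene, and Cd177 encodes a neutrophil surface protein. The 19 arrays share 4 groups, so any gene with the same order of group means scores high.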

How the data were processed

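The 19 arrays were grouped by sample title. Before normalization the deposited values are a linear intensity and a detection p-value for each of 25697 probes, exported from GenomeStudio (version not stated), per the submitters' processing notes. RNA was labelled with biotin, per the labels' protocols, whose other fields describe fixed biopsies and were not used. The authors' normalized intensities (17004 probes) served as an alternative.

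With neqc (offset 16) in limma 3.58.1 and R 4.3.3, the signals were corrected for background, quantile normalized and logged to base 2. Probes had to be detected on 3 arrays, which left 13945 (13088 with 1 gene symbol), and the brightest probe stood for each of 9523 genes. A limma model of 4 groups (15 residual degrees of freedom) gave 6 two-sided comparisons. The number of arrays limits precision. The fit was tested on simulated data with few changed genes and an equal spread in all groups. That setting leaves out the wider spread of TAN for genes such as Ncf1.

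The 4 genes and the lists were chosen with earlier results of these data known. Every partner was named, and of each other list at most 3 called members with the largest change in SM16 minus TAN, TAN minus NN and G-MDSC minus NN, with their values elsewhere. Alternatives changed background correction, scaling, filter, probe, samples, weights, replicate block and range of lowest signal. The fit without TAN replicates 1 and 2, for comparisons that do not involve TAN, was added after seeing the data.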

Additional observations from a re-analysis of the deposited data

Results flagged for a closer look

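Hvcn1, the proton channel, was flagged in G-MDSC for 1 sample far from the others. On its brighter probe G-MDSC replicate 1 read 11.77, the nearest other G-MDSC array 9.30, and the gap was 0.865 of the group's range. The second Hvcn1 probe also read highest on this array, at 10.05, against 6.87 to 7.46 on the other 3. Without G-MDSC replicate 1 the Hvcn1 difference was 0.60 in TAN minus G-MDSC (limma adjusted p = 0.00398) and 0.56 in SM16 minus G-MDSC (limma adjusted p = 0.00311). In all 30 groups were tested in this way, and chance marks about 1 in 20. None of the probes of Cybb, Cyba, Ncf1 and Ncf4 was flagged in SM16, G-MDSC or NN, and the 3 TAN arrays were too few to test.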

How the results depend on the processing

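Of 514 alternative values of the 4 oxidase genes, 476 kept direction and side of the threshold, 25 fell short of it, 5 newly passed it and 8 changed sign. The count of genes called higher in SM16 minus TAN was 1, and became 0 under median scaling, in a fit of the 2 groups only and with TAN replicate 4 alone, 2 with array weights, and 0 to 2 on leaving out 1 array at a time. The count called lower became 2 instead of 4 in G-MDSC minus NN under median scaling. In TAN minus G-MDSC it became 1 instead of 2 in a fit of the 2 groups and with TAN replicate 4 alone. With TAN replicate 4 alone SM16 minus TAN reversed to -0.80 for Ncf1, -0.27 for Rac1, -0.21 for Rac2, -0.69 for Cybc1, -0.78 for Syk, -0.39 for Gpx1 and -0.24 for Spi1, TAN minus NN to 0.71 for Syk, and TAN minus G-MDSC to 0.013 for Hvcn1. Median scaling turned G-MDSC minus NN to 0.30 for Ncf4 and 0.17 for Rac1. Array weights turned Hvcn1 to 0.57 in TAN minus G-MDSC and 0.50 in SM16 minus G-MDSC, and raised the genes called in SM16 minus TAN to 7461 from 4380. On leaving out 1 array at a time, Hvcn1 ran from -0.10 to 0.063 in SM16 minus TAN, from -0.35 to 0.60 in TAN minus G-MDSC and from -0.39 to 0.56 in SM16 minus G-MDSC. Ncf4 ran from -0.24 to 0.0056 in TAN minus G-MDSC, and Cyba from -0.090 to 0.032 in SM16 minus G-MDSC. The causes were not tested.

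Replicate numbers recur across groups, but same-numbered samples did not deviate together (r = -0.255 to 0.204 over the comparisons), so they were not taken as pairs. With the replicate block the Ncf4 call in G-MDSC minus NN was lost (-0.27, limma adjusted p = 0.0906), which leaves 3 of 4 genes lower, Hvcn1 turned to 0.070 in SM16 minus TAN, and no other call of the 4 genes changed. In SM16 minus TAN a fit without the G-MDSC and NN arrays called 2365 genes and TAN replicate 4 alone 451, against 4380. The range of lowest signal as a term left 3885 genes in TAN minus G-MDSC, against 6022, and 3649 in SM16 minus G-MDSC, against 5946. Median scaling moved the median of all genes to -0.15 from 0.19 in TAN minus G-MDSC, to -0.28 from 0.05 in SM16 minus G-MDSC and to 0.08 from 0.19 in TAN minus NN. It moved the share of calls that were higher to 66.9% from 48.9% in G-MDSC minus NN, to 41.2% from 59.5% in TAN minus G-MDSC and to 36.7% from 52.3% in SM16 minus G-MDSC. The Cybb probe outside NN and the dimmer Ncf1 probe in SM16 and TAN lie near background, so their differences there are limits. Cybb lost its call in SM16 minus G-MDSC with an offset of 50 (-0.23) and without G-MDSC replicate 4 (-0.36).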
